A study of Mus musculus with 10 samples.

Results

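The 10 genes described here are surface and identity genes of homeostatic microglia together with 1 neuronal partner. Of these, 9 are microglial, namely P2ry12, P2ry13, Gpr34, Cx3cr1, Tmem119, Siglech, Selplg, Sall1 and Olfml3, and the last, Cx3cl1, encodes the ligand that neurons offer to Cx3cr1. They were chosen by symbol, with earlier results of these data known but by no threshold on values, from the 53700 mouse gene identifiers of a bulk RNA-seq experiment on cortex, and all 10 were among the 19268 genes with enough reads to be tested.

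Cortical RNA came from 10 female mice aged 4 months, 5 labelled 5XFAD and 5 labelled 5XFAD;Neu cKO. Every mouse carried the 5XFAD transgenes, which are human genes mutated as in familial Alzheimer's disease and driven by Thy1 sequence in neurons, so no mouse without amyloid-producing transgenes was compared. In 5XFAD;Neu cKO mice, floxed Idol, the mouse gene Mylip that encodes an E3 ubiquitin ligase of LDL receptors, was removed by Camk2a-Cre, a line active in excitatory neurons of the forebrain. The 5XFAD mice were littermates whose labels read Camk2a-cre WT, beside Camk2a-cre cKO for the other group. Whether WT stands for the Cre or for Idol, and whether these mice carried floxed Idol alleles, is not stated in the labels. No Cre line at the Cx3cr1 locus is among the labels of these libraries. The comparison asks how microglial genes of the cortex stood when Idol was removed from neurons and not from microglia.

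Microglia are the resident macrophages of the brain parenchyma. In the healthy brain they keep fine processes in motion and hold a set of genes for sensing neurons, nucleotides and lipids, much of it dependent on TGF-beta and on transcription factors such as PU.1 and SALL1. Near amyloid plaques, microglia are known to lower many of these homeostatic genes and to raise another set that includes Clec7a, Cst7 and Itgax. Cx3cl1, or fractalkine, is made by neurons and is the only known chemokine ligand of the microglial receptor Cx3cr1.

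Libraries were made with a QuantSeq 3′ kit, which reads transcripts at their 3′ ends alone, so CPM, the count of a gene scaled to a common library total, can be set side by side between genes without division by length. CPM here is scaled by TMM, a normalization that lines up the bulk of genes between libraries. Reads on genes numbered 4320504 to 7466192 per 5XFAD library and 5148499 to 7246659 per 5XFAD;Neu cKO library, and 20.2% to 25.1% of them were mitochondrial. The mitochondrial share was 23.3% to 25.1% in 5XFAD libraries except replicate 5 (20.9%). In 5XFAD;Neu cKO libraries it was 20.2% to 21.1% except in replicate 1 (24.7%). Mylip was counted 45 to 108 times in 5XFAD and 50 to 148 times in 5XFAD;Neu cKO libraries (log2 fold change 0.39, edgeR adjusted p = 0.777). Whether the reads at the 3′ end of Mylip lie in the floxed part is not given in the sources used here, so these counts do not check the deletion, and group names are those of the labels. The labels do not say more of where each library came from than its group and number. The p-values set the difference between the groups against the spread between these libraries.

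All 9 microglial genes had a lower fitted level in 5XFAD;Neu cKO than in 5XFAD cortex (median log2 fold change -0.51), while Cx3cl1 stood slightly higher. The median over all genes tested was 0.00 on the same scale, and 50.1% of all genes were on the lower side. Cx3cr1 was the only one of the 10 past the threshold of 0.05 on the edgeR adjusted p (Benjamini-Hochberg over all 19268 genes), against 42 genes or 0.218% of all genes tested in either direction and 31 genes or 0.161% on the lower side. Of the 10 genes, 5 had an unadjusted edgeR p under 0.05, all lower in 5XFAD;Neu cKO, namely Cx3cr1, Selplg, Siglech, Gpr34 and Tmem119, beside 4.01% of all genes. In Cx3cr1 and Selplg, 2 of the 10, every 5XFAD;Neu cKO library lay below every 5XFAD library, a separation that 0.721% of all genes showed in this direction. DESeq2, the tool of the study, called the same pair of genes, 2 of the 4 members to which it gave an adjusted p, beside 51 or 0.876% called lower of the 5820 genes to which it gave one. In bulk cortex, fewer microglia and less of these RNAs per microglial cell cannot be told apart.

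**Figure D1:**
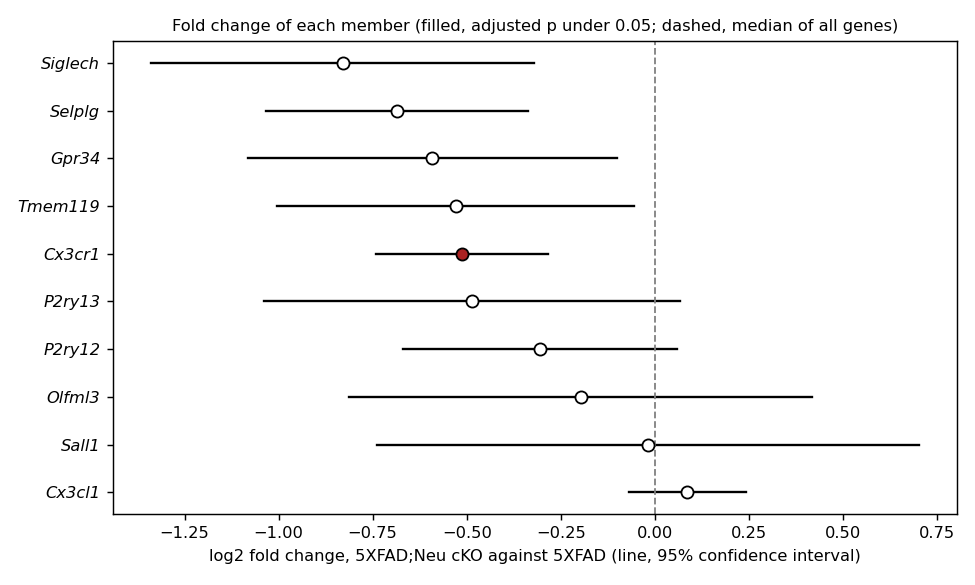
Log2 fold change of each of the 10 genes in 5XFAD;Neu cKO against 5XFAD (x axis; line, 95% confidence interval; filled point, edgeR adjusted p under 0.05; n = 5 libraries per group). The 9 microglial genes lie between -0.83 and -0.02 and Cx3cl1 at 0.09, and the intervals of 5 microglial genes lie wholly below 0.

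Levels differed widely among the genes. Averaged over the 10 libraries, Cx3cl1 was the most abundant at 519 CPM, Cx3cr1 followed at 75.9 CPM, Selplg at 25.4 and P2ry12 at 22.6, and the other 6 lay between 14.6 CPM (Tmem119) and 7.12 CPM (Sall1). Cx3cl1 stood above Cx3cr1, Cx3cr1 above Selplg, and P2ry12 above Tmem119 in 10 of 10 libraries. The other neighbours in this order changed places between libraries, with the upper of each pair higher in 5 to 8 of 10. Among all genes tested, the mean level of Cx3cr1 was at percentile 89.5, that of Cx3cl1 at percentile 99.3 and that of Sall1 at percentile 48.1. The lower genes therefore rested on few reads, with 16 to 112 counts per library for Sall1 and 25 to 78 for Olfml3, beside 339 to 550 for Cx3cr1 and 1990 to 4137 for Cx3cl1.

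**Figure D2:**
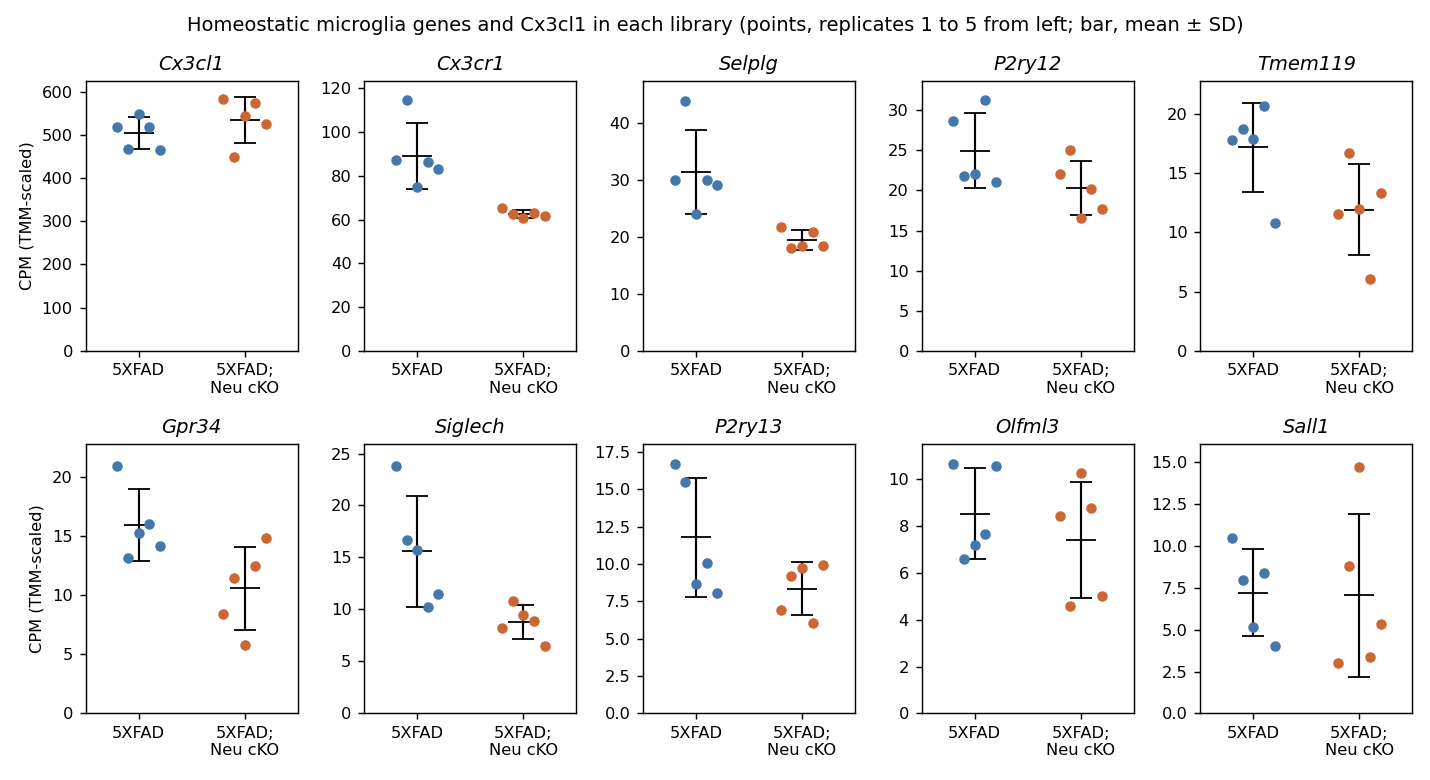
TMM-scaled CPM of each gene in each library (y axis, from 0; points, replicates 1 to 5 from left; bar, mean ± SD, n = 5 per group), ordered by mean level. The groups are apart in Cx3cr1 and Selplg and overlap in the other 8 genes.

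Cx3cr1, the fractalkine receptor that guides microglial contact with neurons (ENSMUSG00000052336, GRCm39 chr9:119877749-119898945, minus strand), stood at 87.4, 115, 74.7, 86.1 and 83.3 CPM in 5XFAD replicates 1 to 5. In 5XFAD;Neu cKO replicates 1 to 5 it stood at 65.1, 62.4, 60.5, 62.9 and 61.5 CPM. The 5XFAD;Neu cKO libraries lay close together, with a coefficient of variation of 2.74% against 16.9% in 5XFAD, and the highest of them was below the lowest 5XFAD library. Cx3cr1 fell from 89.2 ± 15.1 to 62.5 ± 1.71 CPM (SD, n = 5 per group), which is a decrease by 29.9%, or a log2 fold change of -0.51 ± 0.11 (SE, 95% confidence interval -0.74 to -0.28, edgeR adjusted p = 0.0232). Mean log2 CPM compared by an exact two-sided permutation test gave p = 0.00794, the smallest value that 5 against 5 allows. The call held under 7 of 7 other settings of the fit, with adjusted p between 0.00349 and 0.0275, and in 6 of 10 fits with 1 library left out. It was lost without 5XFAD replicate 2, the highest library (log2 fold change -0.41, edgeR adjusted p = 0.231). Without 5XFAD;Neu cKO replicate 3, 4 or 5, the fold change stayed between -0.51 and -0.50 on the log2 scale and the edgeR adjusted p was 0.0846, 0.0694 and 0.0801.

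**Figure D3:**
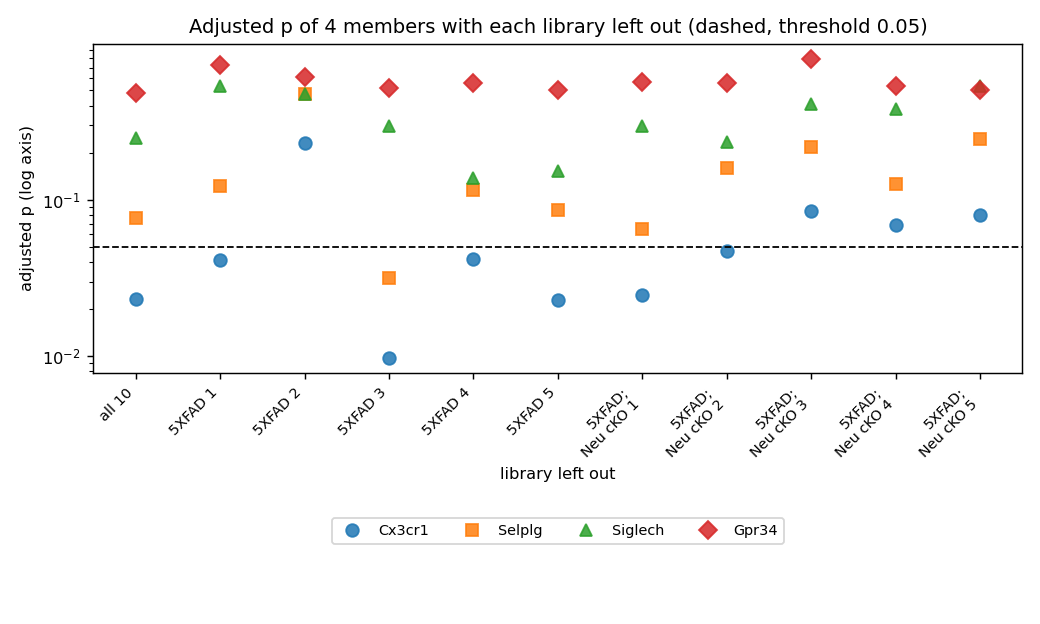
EdgeR adjusted p (log axis; dashed line, threshold 0.05) of Cx3cr1, Selplg, Siglech and Gpr34 with all 10 libraries and with each library left out in turn (x axis). Cx3cr1 lies under the line in 6 of the 10 reduced fits and Selplg in 1, and both are highest without 5XFAD replicate 2.

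Cx3cl1, a transmembrane chemokine that can be shed from the neuronal surface (ENSMUSG00000031778, chr8:95498637-95509055, plus strand), stood at 518, 467, 549, 519 and 465 CPM in 5XFAD replicates 1 to 5. In 5XFAD;Neu cKO replicates it stood at 583, 448, 543, 574 and 525 CPM. The groups overlapped, and both the highest and the lowest of the 10 libraries were 5XFAD;Neu cKO. The log2 fold change was 0.09 ± 0.08 (SE, 95% confidence interval -0.07 to 0.24, edgeR adjusted p = 0.882), an interval that holds rises of up to 0.24 and falls of up to -0.07 on the log2 scale. The log2 ratio of receptor to ligand was -2.50 ± 0.31 in 5XFAD and -3.08 ± 0.14 in 5XFAD;Neu cKO libraries (SD, n = 5), a difference of -0.58. Its exact two-sided permutation test gave p = 0.0159, which did not pass after Benjamini-Hochberg adjustment over the 10 relative values compared (0.159). A single value could not have passed this adjustment alone, since 5 against 5 libraries allow no permutation p below 0.00794.

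Selplg, which encodes PSGL-1, a mucin-like surface protein that binds selectins (ENSMUSG00000048163, chr5:113956597-113970705, minus strand), stood at 30.0, 43.9, 24.0, 30.0 and 29.2 CPM in 5XFAD replicates 1 to 5. In 5XFAD;Neu cKO replicates it stood at 21.7, 18.0, 18.4, 20.9 and 18.4 CPM, so that every one was below the lowest 5XFAD library. The log2 fold change was -0.69 ± 0.17 (SE, 95% confidence interval -1.03 to -0.34), and the edgeR adjusted p of 0.0763 missed the threshold, with an exact permutation p of 0.00794. Under other settings, 3 of 7 brought Selplg past the threshold, among them DESeq2 with an adjusted p of 0.0228 and the fit with no filter on low counts with 0.0304. With 1 library left out, the edgeR adjusted p was lowest without 5XFAD replicate 3 (0.0316) and highest without 5XFAD replicate 2 (0.477). Without 5XFAD replicate 2, the log2 fold change of Selplg was -0.54. Selp and Sele, which encode selectins of platelets and endothelium, were at a count of 0 in every library. Vsir encodes the checkpoint protein VISTA, a known binding partner of PSGL-1. It was at 20.3 ± 4.75 CPM in 5XFAD and 13.5 ± 4.26 CPM in 5XFAD;Neu cKO (SD, n = 5). The log2 difference of Vsir was -0.59, with an edgeR adjusted p of 0.444. Its groups were just apart, with 16.4 CPM the lowest in 5XFAD and 16.3 CPM the highest in 5XFAD;Neu cKO. Gcnt1, a glycosyltransferase that modifies PSGL-1, had a log2 fold change of -0.27 with an edgeR adjusted p of 0.954.

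Promoter windows are shown for 4 genes, the pair whose groups did not overlap, Cx3cr1 and Selplg, and the pair that held the letters searched, P2ry12 and Sall1. Each line is the 250 bases before the start of the canonical GENCODE transcript in GRCm39, read 5′ to 3′ on the gene's own minus strand. The windows lie at chr9:119897368-119897617 for Cx3cr1, chr5:113968568-113968817 for Selplg, chr3:59170430-59170679 for P2ry12 and chr8:89769533-89769782 for Sall1. Capitals mark AGGAAGT, a short form of the motif of PU.1, the factor that macrophages and microglia depend on.
Cx3cr1: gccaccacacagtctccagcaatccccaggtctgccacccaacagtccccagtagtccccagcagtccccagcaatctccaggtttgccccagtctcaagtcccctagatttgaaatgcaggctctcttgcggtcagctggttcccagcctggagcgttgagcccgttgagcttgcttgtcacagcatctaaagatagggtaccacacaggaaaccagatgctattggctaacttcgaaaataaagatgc
Selplg: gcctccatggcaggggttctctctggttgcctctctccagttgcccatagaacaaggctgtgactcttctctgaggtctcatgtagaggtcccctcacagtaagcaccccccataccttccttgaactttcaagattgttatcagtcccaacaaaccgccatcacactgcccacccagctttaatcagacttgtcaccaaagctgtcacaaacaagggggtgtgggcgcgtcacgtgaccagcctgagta
P2ry12: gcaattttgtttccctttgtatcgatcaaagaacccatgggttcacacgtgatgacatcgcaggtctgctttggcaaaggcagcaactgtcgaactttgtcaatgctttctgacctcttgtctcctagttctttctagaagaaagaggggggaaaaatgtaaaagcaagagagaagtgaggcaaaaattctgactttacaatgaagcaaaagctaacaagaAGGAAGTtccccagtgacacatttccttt
Sall1: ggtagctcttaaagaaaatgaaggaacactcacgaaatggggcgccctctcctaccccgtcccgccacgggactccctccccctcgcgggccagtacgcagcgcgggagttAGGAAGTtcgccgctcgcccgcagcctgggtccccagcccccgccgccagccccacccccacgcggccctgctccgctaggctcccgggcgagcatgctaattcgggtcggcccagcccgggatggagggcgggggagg
AGGAAGT, on either strand, was found in 2 of the 10 windows, starting at position -29 from the start site in P2ry12 and at -139 in Sall1, beside 7.12% of 21770 windows of protein-coding genes. The longer form GAGGAAGT, which contains the short one, was in 0 of 10 and in 2.08% of all windows. The share of G and C ran from 41.6% in P2ry13 to 70.8% in Sall1, with a median of 53.2% over all windows. A match of letters is a description, and no match says only that these letters are not in this window.

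Siglech (ENSMUSG00000051504, chr7:55417926-55429195, plus strand) had the lowest fold change of the 10. It belongs to the Siglec family, named for the binding of sialic acid, and is made by microglia and plasmacytoid dendritic cells. It stood at 23.8, 16.7, 15.8, 10.3 and 11.4 CPM in 5XFAD replicates 1 to 5, and at 8.23, 10.9, 9.45, 8.92 and 6.46 CPM in 5XFAD;Neu cKO replicates. Only 1 5XFAD library, replicate 4, reached into the range of the 5XFAD;Neu cKO libraries. This was a log2 fold change of -0.83 ± 0.25 (SE, 95% confidence interval -1.34 to -0.32), with an edgeR adjusted p of 0.248 and an exact permutation p of 0.0159. With 1 library left out, the edgeR adjusted p stayed between 0.138 and 0.537. Of 7 other Siglec genes, 4 were tested and 0 passed, with a median log2 fold change of -0.25, and Siglec1 and Siglece were at a count of 0 in every library. Among them, Mag, the Siglec of myelin, had a log2 fold change of -0.28 (edgeR adjusted p = 0.531) and Cd33, a microglial Siglec, -0.21 (0.973).

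Tmem119, a transmembrane protein used to tell microglia from other macrophages (ENSMUSG00000054675, chr5:113931781-113938577, minus strand), lies 18019 bases from Selplg on the same strand. It stood at 17.8, 18.8, 17.9, 20.7 and 10.8 CPM in 5XFAD replicates 1 to 5, and at 11.6, 16.7, 11.9, 6.06 and 13.4 CPM in 5XFAD;Neu cKO replicates. Replicate 5 of 5XFAD was below 4 of the 5XFAD;Neu cKO libraries, and the other 4 5XFAD libraries were above all of them. For Tmem119 the log2 fold change was -0.53 ± 0.24 (SE, 95% confidence interval -1.0 to -0.06), with an edgeR adjusted p of 0.544 and an exact permutation p of 0.103.

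P2ry12, the ADP receptor with which microglial processes find injured cells and neuronal somata (ENSMUSG00000036353, chr3:59123682-59170429, minus strand), stood at 28.7, 21.8, 22.0, 31.3 and 21.1 CPM in 5XFAD replicates 1 to 5. In 5XFAD;Neu cKO replicates it stood at 22.1, 25.0, 16.5, 20.2 and 17.7 CPM. The groups overlapped, with 5XFAD;Neu cKO replicate 2 above 3 of the 5XFAD libraries. Its log2 fold change was -0.31 ± 0.18 (SE, 95% confidence interval -0.67 to 0.06, edgeR adjusted p = 0.744, exact permutation p = 0.111). P2ry12 shares 294 of its 3206 exon bases with Med12l on the opposite strand, and the strand setting of the counting is not given in the sources used here. Med12l had a log2 fold change of 0.29 (edgeR adjusted p = 0.587). Exon bases are also shared with noncoding genes on the opposite strand by Sall1 (678), Selplg (541), Cx3cl1 (427), Olfml3 (124) and Cx3cr1 (78).

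P2ry13, a related ADP receptor (ENSMUSG00000036362, chr3:59114539-59118304, minus strand), lies 5377 bases from P2ry12, and both lie within the span of Med12l. It stood at 16.7, 15.5, 8.69, 10.1 and 8.08 CPM in 5XFAD replicates 1 to 5, and at 6.92, 9.20, 9.71, 6.06 and 9.91 CPM in 5XFAD;Neu cKO replicates. Replicates 1 and 2 of 5XFAD were clearly above the rest, and the other 3 5XFAD libraries lay among the 5XFAD;Neu cKO libraries or just above them. The log2 fold change was -0.49 ± 0.28 (SE, 95% confidence interval -1.04 to 0.07, edgeR adjusted p = 0.719, exact permutation p = 0.135). Another relative, the UDP-sugar receptor gene P2ry14, was at 2.23 ± 1.68 CPM in 5XFAD and 2.09 ± 1.17 CPM in 5XFAD;Neu cKO (SD, n = 5), or -0.13 as a log2 fold change.

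Gpr34, a receptor for lysophosphatidylserine (ENSMUSG00000040229, chrX:13489625-13507116, plus strand), lies inside the span of Cask on the other strand and shares 0 exon bases with it. It stood at 20.9, 13.1, 15.2, 16.0 and 14.1 CPM in 5XFAD replicates 1 to 5, and at 8.41, 11.4, 5.78, 12.5 and 14.8 CPM in 5XFAD;Neu cKO replicates. Only replicate 5 of 5XFAD;Neu cKO lay above the lowest 5XFAD library. For Gpr34 the log2 fold change was -0.59 ± 0.24 (SE, 95% confidence interval -1.08 to -0.10), with an edgeR adjusted p of 0.483 and an exact permutation p of 0.0238. Cask had a log2 fold change of 0.06 (edgeR adjusted p = 0.966).

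Among 17 other genes of purinergic and lysophosphatidylserine signalling, 16 were tested and 0 passed the edgeR threshold, with a median log2 fold change of -0.11. An unadjusted p under 0.05 was seen in 2, both lower, beside 4.01% of all genes. The most abundant were Gnai2, a G protein subunit that P2Y12 acts through (308 ± 22.6 CPM in 5XFAD, 262 ± 35.2 CPM in 5XFAD;Neu cKO, SD, n = 5, log2 fold change -0.24, edgeR adjusted p = 0.427), and the adenosine receptor gene Adora1 (log2 fold change -0.15, edgeR adjusted p = 0.748).

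Sall1, the zinc finger factor that keeps microglial identity (ENSMUSG00000031665, chr8:89753863-89770823, minus strand), did not separate the groups. It stood at 10.5, 7.98, 5.16, 8.39 and 4.04 CPM in 5XFAD replicates 1 to 5, and at 2.99, 8.83, 14.7, 3.37 and 5.32 CPM in 5XFAD;Neu cKO replicates. Both the highest and the lowest of the 10 libraries were 5XFAD;Neu cKO, and the coefficient of variation there was 69.1%, against 35.9% in 5XFAD. Sall1 had a log2 fold change of -0.02 ± 0.36 (SE, 95% confidence interval -0.74 to 0.70, edgeR adjusted p = 0.997), an interval wide enough to hold a fall or a rise of that size. Without 5XFAD;Neu cKO replicate 3, the highest library, it was -0.49 (edgeR adjusted p = 0.901), and without 5XFAD;Neu cKO replicate 1 it was 0.17 (0.970). Sall1 is also made in other cells of the brain during development and in kidney, and these bulk libraries do not show which cells gave its reads.

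Olfml3, a secreted olfactomedin-like protein (ENSMUSG00000027848, chr3:103629538-103645322, minus strand), stood at 10.7, 6.57, 7.20, 7.64 and 10.5 CPM in 5XFAD replicates 1 to 5. In 5XFAD;Neu cKO replicates it stood at 8.41, 4.60, 10.2, 8.75 and 5.03 CPM. The groups overlapped through most of their range. The log2 fold change was -0.20 ± 0.31 (SE, 95% confidence interval -0.81 to 0.42, edgeR adjusted p = 0.958). Of 15 other regulators of microglial identity, 14 were tested and 0 passed, 7 lower and 7 higher, with a median log2 fold change of 0.01. The most abundant were Mef2c (log2 fold change 0.03, edgeR adjusted p = 0.971) and Mef2a (0.10, 0.894), factors that neurons also express at high levels.

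In each library the 9 microglial genes summed to 247, 259, 191, 221 and 193 CPM in 5XFAD replicates 1 to 5 and to 155, 167, 157, 150 and 152 CPM in 5XFAD;Neu cKO replicates. All 5 sums of 5XFAD;Neu cKO were below the lowest of 5XFAD, and Cx3cr1 makes up much of each sum. The highest of the 10 libraries was 5XFAD replicate 1 for 4 of the 9 genes, 5XFAD replicate 2 for 2, 5XFAD replicate 4 for 2 and 5XFAD;Neu cKO replicate 3 for 1, which was Sall1. The lowest was a 5XFAD;Neu cKO library for all 9 microglial genes, spread over all 5 of them.

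**Figure D4:**
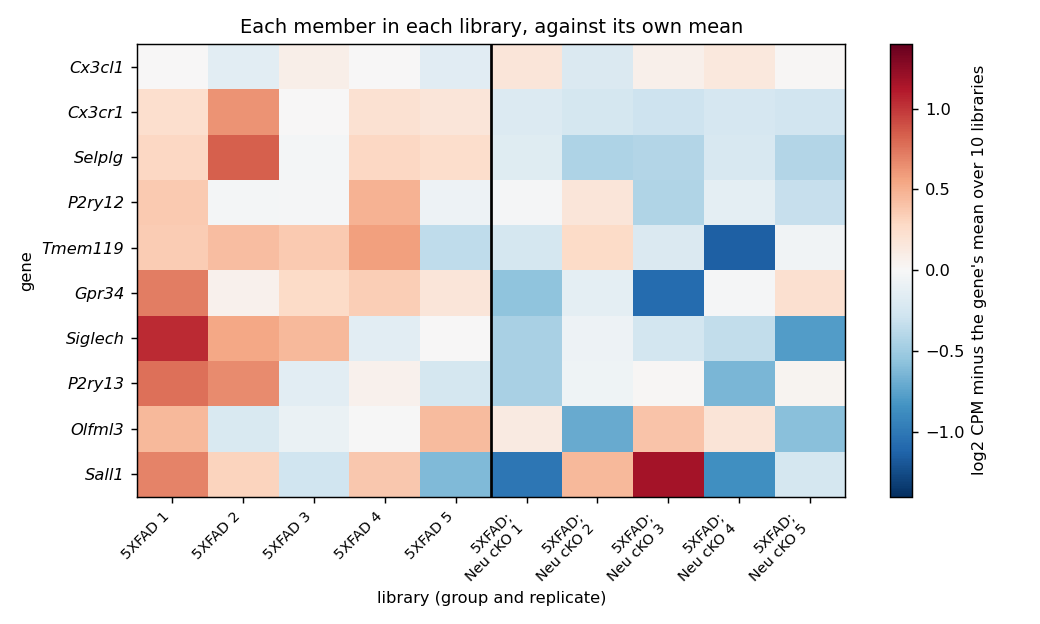
Log2 CPM of each gene (rows) in each library (columns; black line between the groups) minus the gene's mean over the 10 libraries (colour). Cx3cr1 and Selplg are below their mean in all 5 of the 5XFAD;Neu cKO libraries, Cx3cl1 stays near its mean throughout, and Sall1 varies most within 5XFAD;Neu cKO.

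Whether a gene stood apart from the other microglial genes was tested on its log2 CPM minus the mean of the others in the same library. None of the 9 genes passed (exact two-sided permutation tests, p from 0.159 for Siglech to 0.857), and 0 of the 10 relative values passed after Benjamini-Hochberg adjustment. No single value could have passed that adjustment alone, given the smallest p that this test allows (0.00794). Siglech had the most negative difference between the groups, -0.32 on the log2 scale, and Sall1 the most positive, 0.31. The difference for Cx3cr1 was -0.03 (2.58 ± 0.26 in 5XFAD, 2.55 ± 0.17 in 5XFAD;Neu cKO, SD, n = 5), and with 1 library left out it ran from -0.12 to 0.04.

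Within the groups, the 9 microglial genes did not vary together as 1 unit. As a description over 10 libraries, after subtraction of each group's mean, the 36 pairs had a median Pearson r of 0.08, from -0.62 for Olfml3 and Tmem119 to 0.97 for Selplg and Cx3cr1. The value for Selplg and Cx3cr1 was 0.89 without 5XFAD replicate 2. Sall1 and P2ry13 followed with 0.73. These values share the libraries, their depth and their scaling, and most of the genes have few counts.

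Most genes of the other microglia lists were also on the lower side, where 50.1% of all genes lay and 0.161% of all genes passed the edgeR threshold. Of 16 other homeostatic microglia genes, 15 were tested, 11 were lower and 4 higher, and 1 passed, Csf1r, the receptor for the growth factors CSF1 and IL-34 (60.3 ± 10.2 CPM in 5XFAD, 38.5 ± 2.43 CPM in 5XFAD;Neu cKO, SD, n = 5, log2 fold change -0.65, edgeR adjusted p = 0.00615). Their median log2 fold change was -0.35. Of 18 genes of microglia and macrophages at large, 17 were lower and 5 fell past the threshold, with a median of -0.52. These 5 were the complement genes C1qb (log2 fold change -1.21, edgeR adjusted p = 0.000407) and C1qc (-0.82, 0.00985), the adaptor Tyrobp (-1.10, 0.000564), the lysosomal protein Laptm5 (-0.67, 0.0357) and the protease Ctss (-0.91, 5.24e-07). Of 15 plaque-associated microglia genes, 13 were lower and 2 fell past the threshold, with a median of -0.55, namely the protease Ctsd (-0.69, 5.24e-07) and the beta-glucan receptor Clec7a, counted 10 to 22 times in 5XFAD and 0 to 3 times in 5XFAD;Neu cKO libraries (adjusted p = 0.0468). The calls of Ctss, Ctsd, Tyrobp and C1qb held in 10 of 10 fits with 1 library left out. Csf1r lost its call without 5XFAD replicate 2 (edgeR adjusted p = 0.0808), C1qc without 5XFAD replicate 4 (0.0636) or 5XFAD;Neu cKO replicate 5 (0.0984), Laptm5 was past the threshold in 3 of 10 such fits (without 5XFAD replicate 3 or 5XFAD;Neu cKO replicate 2 or 4) and Clec7a in 1 (without 5XFAD;Neu cKO replicate 1), and Clec7a was also lost without mitochondrial genes (0.0521). Per library, the mean log2 CPM of the 9 genes described here was 4.18 ± 0.23 in 5XFAD and 3.71 ± 0.13 in 5XFAD;Neu cKO (SD, n = 5), a difference of -0.47. The same difference was -0.31 for the other homeostatic genes, -0.53 for genes of microglia and macrophages at large and -0.61 for plaque-associated genes. In this mean the groups overlapped for plaque-associated genes (5XFAD from 3.34, 5XFAD;Neu cKO up to 3.37) and for the other homeostatic genes. Ctsd alone gave 351 of the 854 CPM to which plaque-associated genes summed in 5XFAD on average. These lists were drawn up with earlier results of these data known, and no list was tested as a set.

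**Figure D5:**
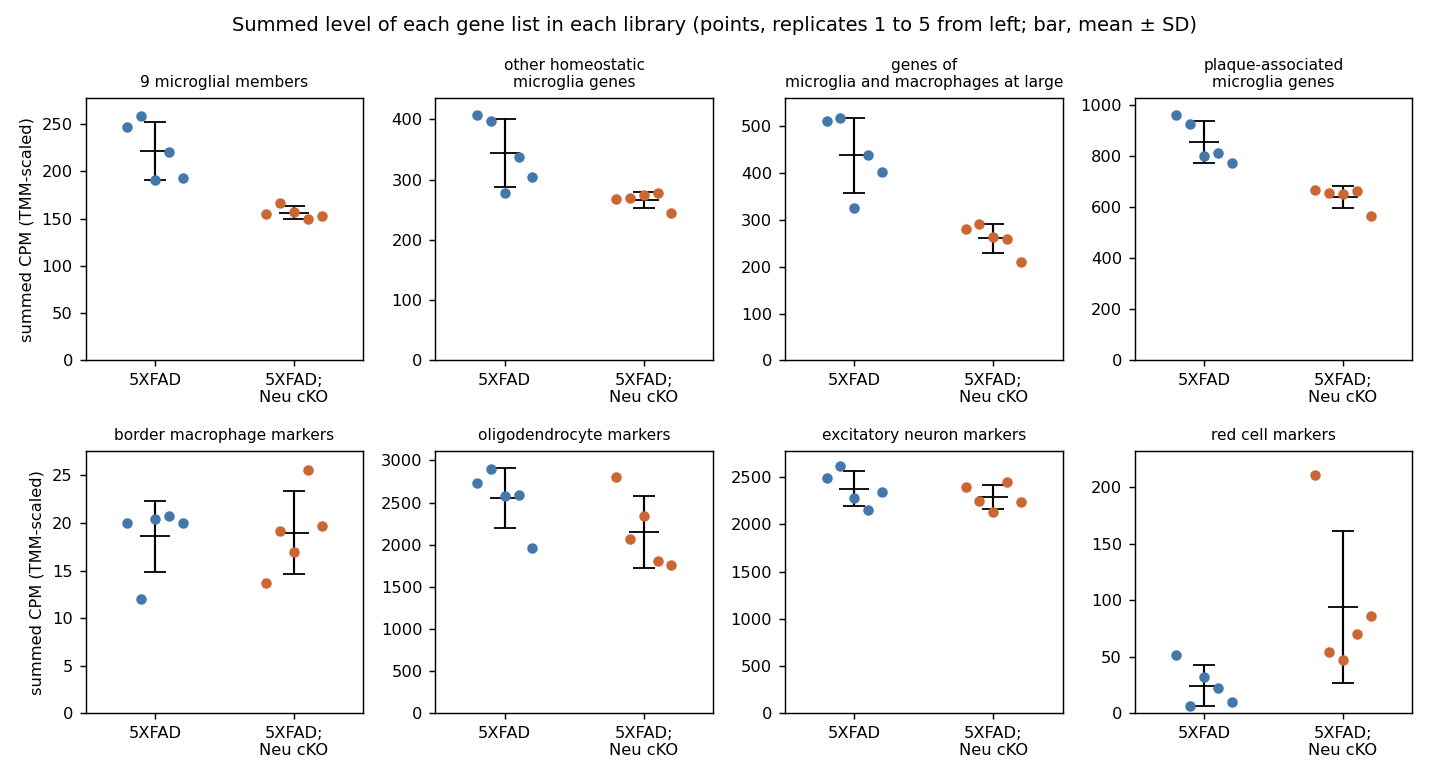
Summed TMM-scaled CPM of gene lists in each library (y axis, from 0; points, replicates 1 to 5 from left; bar, mean ± SD, n = 5 per group). The sums of the 9 microglial members, of genes of microglia and macrophages at large and of plaque-associated genes do not overlap between the groups. Ctsd makes up a large part of the plaque-associated sum. Sums of the other homeostatic genes touch, and those of border macrophage, oligodendrocyte and excitatory neuron markers overlap. Those of red cell markers run higher in 5XFAD;Neu cKO with an overlap between 46.9 and 51.4 CPM.

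Genes that carry signals between neurons and microglia were divided. Of 9 tested, 5 were lower and 4 higher with a median log2 fold change of -0.04, and 1 passed, Ctss. This protease can release fractalkine from neurons and is also among the microglial genes above. In 2 of the 9, Ctss among them, every 5XFAD;Neu cKO library lay below every 5XFAD library, beside 0.721% of all genes. Markers of other cells were measured beside these results. Border macrophage markers, 8 of 8 tested, summed to 12 to 20.7 CPM in 5XFAD and 13.6 to 25.6 CPM in 5XFAD;Neu cKO, and their median log2 fold change was 0.12. Monocyte and neutrophil markers summed to 0 to 2.72 and 0 to 1.85 CPM, with Chil3 at 0 throughout and only Ccr2 and S100a8 of the 7 past the filter on low counts. Of the border macrophage markers 0 passed the threshold in either direction, and blood leukocyte markers were at or near 0.

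Of the markers of excitatory neurons, inhibitory neurons, neurons at large, endothelial cells, pericytes, astrocytes, oligodendrocytes, their precursors and choroid plexus, 0 genes passed the edgeR threshold in either direction. This covers the listed markers alone, and Gfap, an astrocyte marker, was not among them. The median log2 fold changes were -0.02 in excitatory neurons, -0.06 in inhibitory neurons, 0.00 in neurons at large, 0.08 in endothelial cells, 0.02 in pericytes, -0.12 in astrocytes, -0.25 in oligodendrocytes, -0.11 in their precursors and 0.15 in choroid plexus. Of the 8 astrocyte markers 7 were on the lower side, with 3 at an unadjusted p under 0.05, all lower, and their sums overlapped (4285 to 5018 CPM in 5XFAD, 4153 to 4774 CPM in 5XFAD;Neu cKO). In oligodendrocytes all 8 markers were on the lower side, with 4 at an unadjusted p under 0.05, and their sums overlapped (1956 to 2894 CPM in 5XFAD, 1766 to 2798 CPM in 5XFAD;Neu cKO). Over all genes, 4.01% were lower with an unadjusted edgeR p under 0.05. Among markers of neurons at large, Syt1, a synaptic vesicle protein gene, had a log2 fold change of -0.20 (edgeR adjusted p = 0.252) and Snap25, a gene of the synaptic fusion machinery, one of 0.25 (0.287), and DESeq2 called Syt1 lower with an adjusted p of 0.0483. Red cell markers moved with the groups in the opposite direction: 2 of 5, Hba-a1 and Hbb-bs, rose past the threshold (log2 fold changes 2.16 and 1.87, edgeR adjusted p = 0.000302 and 0.000233), and the sum of the 5 ran from 6.34 to 51.4 CPM in 5XFAD and from 46.9 to 211 CPM in 5XFAD;Neu cKO, although the mice were perfused with saline. Both calls held in 10 of 10 fits with 1 library left out and were lost in a robust fit (edgeR adjusted p = 0.413 and 0.482), and DESeq2 gave Hbb-bs an adjusted p of 0.153. The part of red cell RNA or of astrocyte or oligodendrocyte content in the levels of the microglial genes was not tested.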

How the data were processed

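Cortical RNA of 10 female mice was measured, with 5 mice in each of the labelled groups. The authors made QuantSeq 3′ libraries, sequenced single reads, trimmed them with bbduk, aligned them with STAR 2.7.3a to GRCm39 and counted them per gene with HTSeq, version 0.9.1 in the submitters' processing notes (the study's methods give another version). The deposited values are raw counts without normalization, and the strand setting is not given in the sources used here. Rows for reads on no gene (31.3% to 39.9% of those kept) entered neither library sizes nor tests. Of 53700 identifiers, 52610 were named from a later GENCODE release of the same build, which also gave places and promoters.

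The model of the counts used edgeR 4.0.16 under R 4.3.3 (TMM, glmQLFit, glmQLFTest) with genotype as its single term. Only genes whose counts summed to more than 10 were kept, and p was adjusted by Benjamini-Hochberg over 19268 genes. Single values used an exact two-sided permutation test over 252 relabellings. Log2 CPM had a prior count of 2. The confidence intervals are at 95%. DESeq2 1.42.0, its size factors, filterByExpr, no filter, a robust fit, leaving out mitochondrial genes, a replicate block, a prior count of 0.5 and leaving out each library were the alternatives. The edgeR fit was tested on simulated counts with known fold changes. All libraries of a group differed by more than sampling noise.

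The 10 genes, the other lists and the tests were chosen with earlier results of these data known. Named are every member, listed genes past the threshold (or the 2 most abundant of a list without one), genes overlapping a member, Mylip, P2ry14, and the 5 genes most like the microglial mean and the 5 most like Cx3cl1. Markers of other cell types are given as counts, medians or sums, and those named are the ones past the threshold, the most abundant of neurons at large and, for monocytes and neutrophils, those past the filter. Fcrls was not found among the names used. Some genes that this rule or the lists cover are not reported here.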

Additional observations from a re-analysis of the deposited data

Results flagged for a closer look

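Among the 20 sets of 5 libraries (10 genes in each group), 1 library stood far from the rest of its group, where chance marks about 1 set in 20. Tmem119 was at 10.8 CPM in 5XFAD replicate 5, and its gap to the nearest of the other 4 libraries was 0.711 of the group's range, just over the critical value of 0.71. Without this library the edgeR adjusted p of Tmem119 was 0.416.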

How the results depend on the processing

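The number of the 10 genes past the threshold was 1, and it was 2, Cx3cr1 and Selplg, with DESeq2, with no filter on low counts and with the replicate block. Over all genes the calls numbered 42, and 73 with DESeq2, 103 with no filter and 112 with the replicate block. When libraries were dropped 1 at a time, calls over all genes were fewest without 5XFAD replicate 2 (26) and most without 5XFAD;Neu cKO replicate 1 (72), and the members past the threshold went from 0 (without 5XFAD replicate 2 or 5XFAD;Neu cKO replicate 3, 4 or 5) to 2 (without 5XFAD replicate 3). The median log2 fold change of the 9 microglial genes ran from -0.59 to -0.39 over the fits without 1 library, with 8 or 9 of the 9 lower, and 9 were lower in all 7 other settings. Sall1 is the gene that turned, from -0.02 (and -0.49 without 5XFAD;Neu cKO replicate 3) to 0.15, 0.02, 0.04, 0.17, 0.16 and 0.07 without 5XFAD replicate 1, 2 or 4 or 5XFAD;Neu cKO replicate 1, 4 or 5. The cause of these shifts was not tested.

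Replicate numbers do not pair the samples: the correlation of same-numbered libraries' deviations ran from -0.05 to 0.02 over 12073 genes. With the replicate block, Selplg had an edgeR adjusted p of 0.0427. Sall1 and Olfml3, the genes of lowest level, have intervals that reach past 0.40 on both sides of 0, which limits what can be seen at this depth.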

Other observations

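After subtraction of each group's mean, the genes whose log2 CPM followed the mean of the 9 microglial genes most closely over 10 libraries, among 12063 compared, were Snx13 (Pearson r = 0.94), Tafa5 (0.93), Maml2 (0.93), Add3 (0.92) and Fgd6 (0.91). Those most like Cx3cl1 were Kcnv1 (0.96), Tmem128 (0.95), Rrn3 (0.94), Bud23 (0.93) and Galnt13 (0.90). These are the highest of many values over few libraries and carry no test. None of the 10 passed the edgeR threshold between the groups, Bud23 and Maml2 having log2 fold changes of 0.64 and -0.75.

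Against the microglial genes, Cx3cl1 had a median r of -0.15 over 9 pairs, measured the same way, and 1 of them, with Olfml3, was positive (0.50).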
